A study of Homo sapiens with 6 samples.

Results

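The genes described here encode the MYC, MAX and MXD network of transcription factors. They were the 10 genes whose symbol in the deposited count table was MYC, MYCN, MYCL, MAX, MXD1, MXI1, MXD3, MXD4, MNT or MLX, out of 58051 genes in all. Each symbol matched a single Ensembl gene, and all 10 passed the filter on low counts that left 19574 genes for testing. RNA was sequenced from HEK293T cells (an established line from human embryonic kidney, carrying the SV40 T-antigen) 48 hours after transient transfection with the empty plasmid pcDNA3.1- (3 libraries) or with pcDNA3.1-ppk1 (3 libraries), which expresses a bacterial polyphosphate kinase. Libraries of both groups are lettered B, C and D, and those of the same letter are matched biological replicates according to the series' design text. The 6 libraries share the line, the vector backbone and the time. The share of cells that took up a plasmid and the plasmid amount and transfection reagent of each culture are not given for single libraries. The ppk1 transcript was not analysed here.

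Proteins of this network carry a basic helix-loop-helix leucine zipper and bind DNA as dimers. MYC, MYCN and MYCL need MAX as their partner and mostly raise transcription, with growth, ribosome production and nucleotide synthesis among the programmes they are known for. MXD1, MXI1, MXD3, MXD4 and MNT compete for MAX and recruit SIN3 and histone deacetylase corepressors. MLX is the partner of MondoA (the product of MLXIP) and ChREBP (the product of MLXIPL), which respond to glucose phosphates, and it also dimerises with MXD1, MXD4 and MNT. MYC RNA and protein are both short-lived, and MYC is held at a high level in many fast-growing cultured lines. Only RNA was measured.

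The sequence that the dimers with MAX prefer is the E-box, CACGTG. It is its own reverse complement, so a search of a strand covers both. RefSeq promoters (GRCh38.p14), each running from 250 bases before to 50 bases after a start site, were found for 9 of the 10 genes and not for MYC. The promoters of MXD4, MNT and MLX each held the E-box once, beginning 238, 193 and 50 bases before the start site. These are 3 of 9 genes, and 8.77% of the 27305 genes in the same table have an E-box in at least 1 promoter. The match is a description of these letters and shows no binding. The 250 bases before the start site are printed for these 3 genes, because they are the members that carry this E-box. They are given 5′ to 3′ on the gene's strand with the E-box in capitals: MXD4 at chr4:2262110-2262359 (minus strand), MNT at chr17:2401061-2401310 (minus strand) and MLX at chr17:42566850-42567099 (plus strand).
MXD4: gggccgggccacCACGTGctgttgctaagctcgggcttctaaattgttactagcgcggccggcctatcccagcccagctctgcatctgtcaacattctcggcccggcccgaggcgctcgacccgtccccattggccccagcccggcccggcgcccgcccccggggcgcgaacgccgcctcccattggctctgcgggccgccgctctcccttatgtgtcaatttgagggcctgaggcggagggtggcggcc
MNT: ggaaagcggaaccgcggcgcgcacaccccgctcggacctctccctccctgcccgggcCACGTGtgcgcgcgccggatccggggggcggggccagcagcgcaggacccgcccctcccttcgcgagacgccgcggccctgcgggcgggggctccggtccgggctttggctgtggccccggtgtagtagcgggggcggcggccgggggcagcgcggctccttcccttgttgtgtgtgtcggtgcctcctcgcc
MLX: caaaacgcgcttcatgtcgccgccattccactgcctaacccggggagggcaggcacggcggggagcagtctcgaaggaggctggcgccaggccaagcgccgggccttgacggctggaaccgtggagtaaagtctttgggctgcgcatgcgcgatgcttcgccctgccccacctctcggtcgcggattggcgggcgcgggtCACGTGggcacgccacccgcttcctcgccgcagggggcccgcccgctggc

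The empty vector libraries held 40851783 to 50918800 counts and the ppk1 libraries 42666552 to 67122986, the ppk1 library having more counts in all 3 pairs. All 9 markers of the HEK293 line (VIM, CDH2 and NEFM among them) were above 1 CPM (count per 1000000 of the TMM-scaled library) in every library, with summed levels of 934 to 1051 CPM in the empty vector group and 903 to 942 with ppk1. Markers of other cell types were low. The 4 leukocyte markers summed to 0.588 to 0.677 CPM without and 0.355 to 0.509 CPM with ppk1, with CD3E at no more than 1 count in any library. The 3 endothelial ones summed to 0.0226 to 0.22 and 0.195 to 0.287 CPM, and the 3 hepatocyte ones to 0.928 to 1.2 and 0.501 to 0.646 CPM. The 4 fibroblast markers summed to 16.4 to 21.6 and 19.9 to 20.6 CPM, nearly all of it COL1A1, with DCN at 0.0677 CPM or less. Whether these small differences have a part in any result was not tested. In bulk RNA, fewer cells with a transcript and less of it per cell cannot be told apart.

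Compared per length within a library, MYC was the most abundant member. Its level in the empty vector libraries was 200.2 ± 7.96 TPM (counts divided by the length of all annotated exons and scaled to a sum of 1000000 in each library, mean ± SD, n = 3). MLX followed with 60.3 ± 0.726 TPM. MAX at 46.5 ± 0.658, MXD4 at 46.2 ± 5.7 and MXI1 at 45.2 ± 4.11 TPM did not differ from each other beyond their spread. MNT (20.7 ± 4.41 TPM) and MXD3 (20.7 ± 1.17 TPM) could not be ordered either. MXD1 lay at 10.2 ± 0.682 TPM and MYCL at 7.28 ± 0.699 TPM. MYCN was last at 0.494 ± 0.105 TPM, so that MYC supplied 96.3 ± 0.221% of the summed MYC, MYCN and MYCL level, and 96.2 ± 0.149% in the ppk1 libraries. TPM are used for the order of genes within a library and for ratios taken within a library, and not for the change of a single gene between groups. The order below MYC and MLX depends on the length used. Dividing by the longest transcript instead put MXD4 (56.4 TPM) above MAX (47.7 TPM), and MXD3 (34.1 TPM) above MNT (26.4 TPM).

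**Figure D1:**
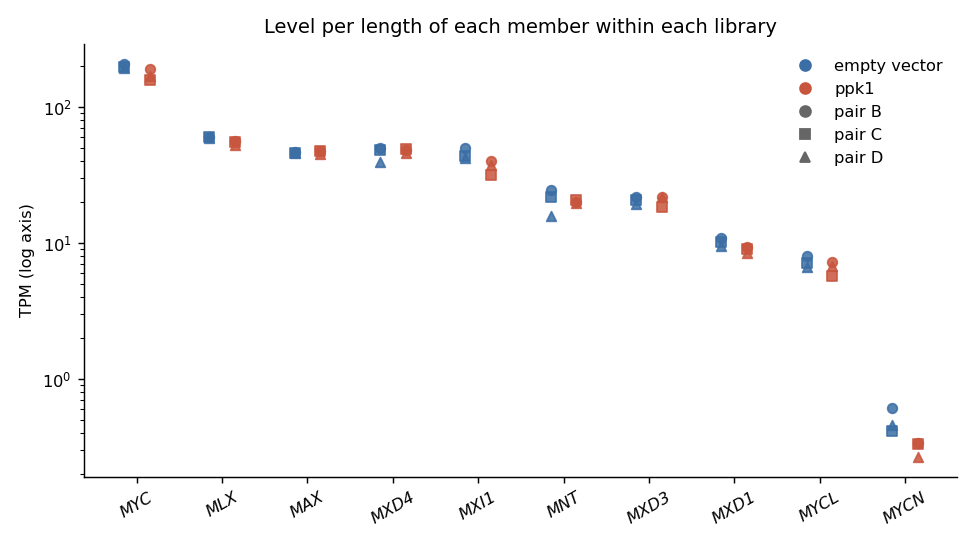
Level of each member per length in each library, in TPM on a log axis, with a point for each library, blue for empty vector and red for ppk1, and the marker shape giving the pair. MYC stands highest at a mean of 200.2 TPM in the empty vector libraries and MYCN lowest at 0.494 TPM.

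The comparison of the groups asks which of these transcripts differ when the kinase is expressed. edgeR was fitted with the replicate letter as a block and its quasi-likelihood test was used. At a Benjamini-Hochberg adjusted p below 0.05, 0 of the 10 members were called. Their adjusted p-values ran from 0.11 (MXD4) to 0.988 (MLX). Among all genes tested 9.08% were called, so a set of 10 with no call is not far from the background. At an unadjusted p below 0.05, 2 of the 10 passed, MXD4 upward and MXI1 downward, against 23.8% of all genes. DESeq2 also called 0 members (2 at an unadjusted p below 0.05), though it gave MYCN no adjusted p. The median log2 fold change of the members was -0.01, beside 0.01 for all tested genes. The ranges of the groups did not overlap for 4 members (25.6% of all genes), and 6 members moved in a single direction in all 3 pairs (43.8% of all genes). Of these 6, MAX, MXD3 and MXD4 were higher (22.6% of all genes) and MYC, MYCN and MXI1 lower (21.1%). The share of all genes called was 2.4% without the block, 4.36% with DESeq2, 8.73% with RLE scaling, 6.92% with upper-quartile scaling, 4.57% without a filter, 8.96% at a mean of at least 50 counts, 9.28% with the newer quasi-likelihood setting and 16.5% with offsets for GC content and length, and each of these fits called 0 members. It was 12.5% without pair B (2 members called), 2.06% without pair C (0 called, and 0 at an unadjusted p below 0.05) and 9.06% without pair D (1 called).

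The data do limit how large a change in the bulk RNA of a culture could have been. The share of cells that took up a plasmid is not given for single libraries, so a change within those cells is not bounded. For the 9 members other than MYCN, the 95% intervals of the ppk1 to empty vector ratio lay between 0.792 and 1.26, and between 0.777 and 1.29 without the block. A fall of more than 20.8% or a rise of more than 26.3% lies outside every such interval of the blocked fit. These intervals lean on a dispersion shared across genes, with 47.5 prior degrees of freedom.

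**Figure D2:**
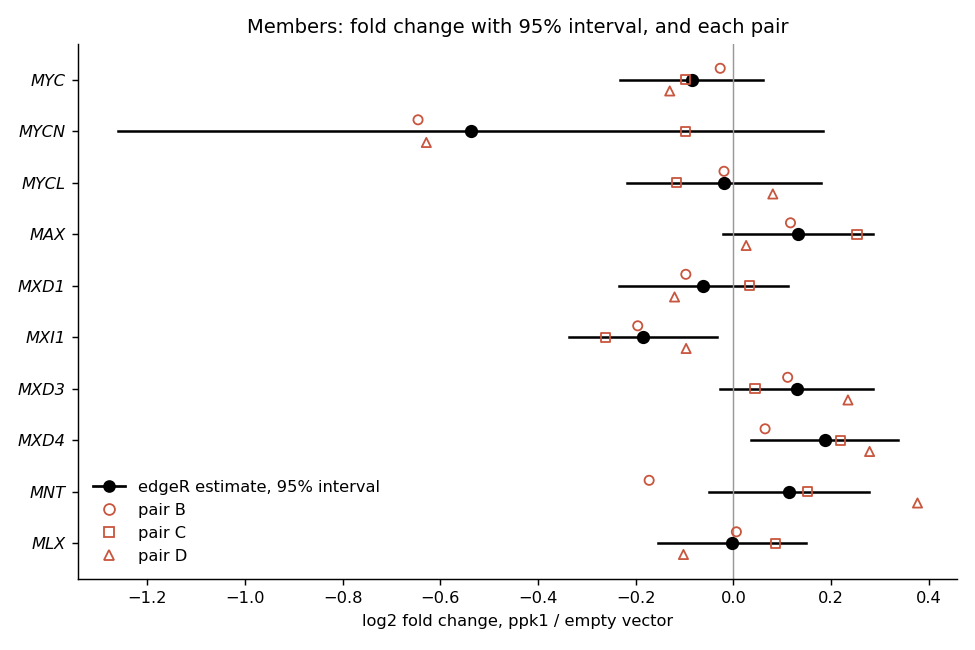
Log2 fold change of each member, ppk1 over empty vector, with the edgeR estimate and its 95% interval as black points and bars and the differences within pairs B, C and D as open red symbols. The intervals of MXI1 and MXD4 exclude 0 before adjustment for multiple testing, and MYCN has the widest interval.

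Of the activators, MYC itself (ENSG00000136997, chromosome 8) had 157, 149.5 and 155 CPM in the empty vector libraries B, C and D and 154, 139.7 and 142 CPM in the ppk1 libraries. The ppk1 library was the lower of each pair, but the groups overlapped, since ppk1 B lay above empty vector C. The log2 fold change was -0.08 (SE 0.07, edgeR adjusted p 0.513), a ratio of 0.943 with a 95% interval of 0.852 to 1.04. With 5936 to 10287 counts per library, MYC was the best measured member. Changes beyond these bounds lie outside the interval, and smaller ones could not be detected with 3 pairs. MYCL (ENSG00000116990, chromosome 1), the member first found in lung cancer, ranged from 8.96 to 10.2 CPM without and from 8.47 to 10 CPM with ppk1, overlapping almost entirely (ratio 0.987, interval 0.86 to 1.13).

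MYCN (ENSG00000134323, chromosome 2), the member known from neuroblastoma and the embryonic nervous system, was close to the limit of measurement. It had 21, 12 and 13 counts in the empty vector libraries B, C and D and 16, 12 and 8 counts in the ppk1 libraries. Scaled to depth these were 0.398, 0.271 and 0.318 CPM against 0.24, 0.25 and 0.191 CPM, so every ppk1 library lay below every empty vector library. The log2 fold change of -0.54 (edgeR adjusted p 0.381, SE 0.36) had an interval of 0.418 to 1.14 as a ratio. The interval is wide because of the few counts and holds a ratio of 1, so no difference was detectable at this depth.

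MAX (ENSG00000125952, chromosome 14), the shared partner, had 52.3, 51.4 and 54.8 CPM in the empty vector libraries B, C and D and 56.7, 61.3 and 55.8 CPM with ppk1. All 3 ppk1 libraries were above all 3 control libraries, by a margin in pair D of only 0.03 on the log2 scale. The log2 fold change was 0.13 (SE 0.08, edgeR adjusted p 0.292), and the interval of the ratio ran from 0.986 to 1.22. Pair C gave the largest difference, 0.25, and without it the estimate was 0.07.

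Among the repressors, MXD4 (ENSG00000123933, chromosome 4), which is typical of cells leaving the cycle, had the smallest p of the network. Its levels were 88.7, 86.9 and 74.8 CPM in the empty vector libraries B, C and D and 92.7, 101 and 90.7 CPM in the ppk1 libraries. The groups did not overlap, although ppk1 D and empty vector B differed little. The log2 fold change was 0.19 (SE 0.07, edgeR adjusted p 0.11), a ratio of 1.14 with an interval of 1.03 to 1.26. The pairs gave 0.06, 0.22 and 0.28, and leaving out pair B brought MXD4 to 0.25 and past the threshold (edgeR adjusted p 0.0477). Without pair D it was 0.12 (adjusted p 0.346), and without pair C 0.17 (adjusted p 0.708).

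MXI1 (ENSG00000119950, chromosome 10), also called MXD2, went the other way. It had 57.4, 50.7 and 51.7 CPM in the empty vector libraries B, C and D and 50.1, 42.3 and 48.4 CPM with ppk1. Every ppk1 library lay below every control, with ppk1 B and empty vector C nearly level. The log2 fold change was -0.19 (SE 0.08, edgeR adjusted p 0.115), a ratio of 0.88 with an interval of 0.792 to 0.977. Without pair D the estimate was -0.25 and passed the threshold (edgeR adjusted p 0.0287), and without pair C it was -0.15 (adjusted p 0.788).

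MNT (ENSG00000070444, chromosome 17), the repressor present in most cycling and resting cells, had a wide spread between the control libraries. These had 53.4, 47.9 and 36.9 CPM (B, C and D), while the ppk1 libraries had 47.4, 53.2 and 47.9 CPM. The pairs disagreed in direction, with -0.17, 0.15 and 0.38 on the log2 scale, and the groups overlapped. The joint log2 fold change was 0.11 (SE 0.08, edgeR adjusted p 0.419). MNT was called only in the fit without pair B, at a log2 fold change of 0.26 (edgeR adjusted p 0.0355). Without pair D the log2 fold change was -0.03 (adjusted p 0.856). With offsets for GC content and length it was 0.06. An unstranded count of MNT would include AC006435.1, which covers 12.2% of its exonic bases on the opposite strand.

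MXD1 (ENSG00000059728, chromosome 2), which rises in many differentiating cells, ranged from 16.1 to 17.3 CPM without and from 14.8 to 16.9 CPM with ppk1 (ratio 0.958, interval 0.85 to 1.08). Its log2 fold change of -0.06 was -0.11 without pair C and 0.0012 with the offsets. MXD3 (ENSG00000213347, chromosome 5), the MXD protein found in S-phase cells, ranged from 26.8 to 28.1 CPM and from 27.8 to 31.5 CPM. It was higher with ppk1 in all 3 pairs, and the log2 fold change was 0.13 (edgeR adjusted p 0.321, SE 0.08). Without pair D this was 0.06, and with the offsets 0.08. Its value is uncertain, because 18% of its exonic bases overlap RAB24 on the same strand and 22.5% overlap PRELID1 on the other. MLX (ENSG00000108788, chromosome 17) ranged from 64.7 to 67.5 CPM without and from 62.9 to 69.2 CPM with ppk1, and its ratio was 0.998 (interval 0.899 to 1.11). PSMC3IP covers 18.1% of MLX's exonic bases on the opposite strand. Of the other members, MYC overlaps no other gene's exons, and for the rest the overlap is at most 4.46% of exonic bases on either strand.

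**Figure D3:**
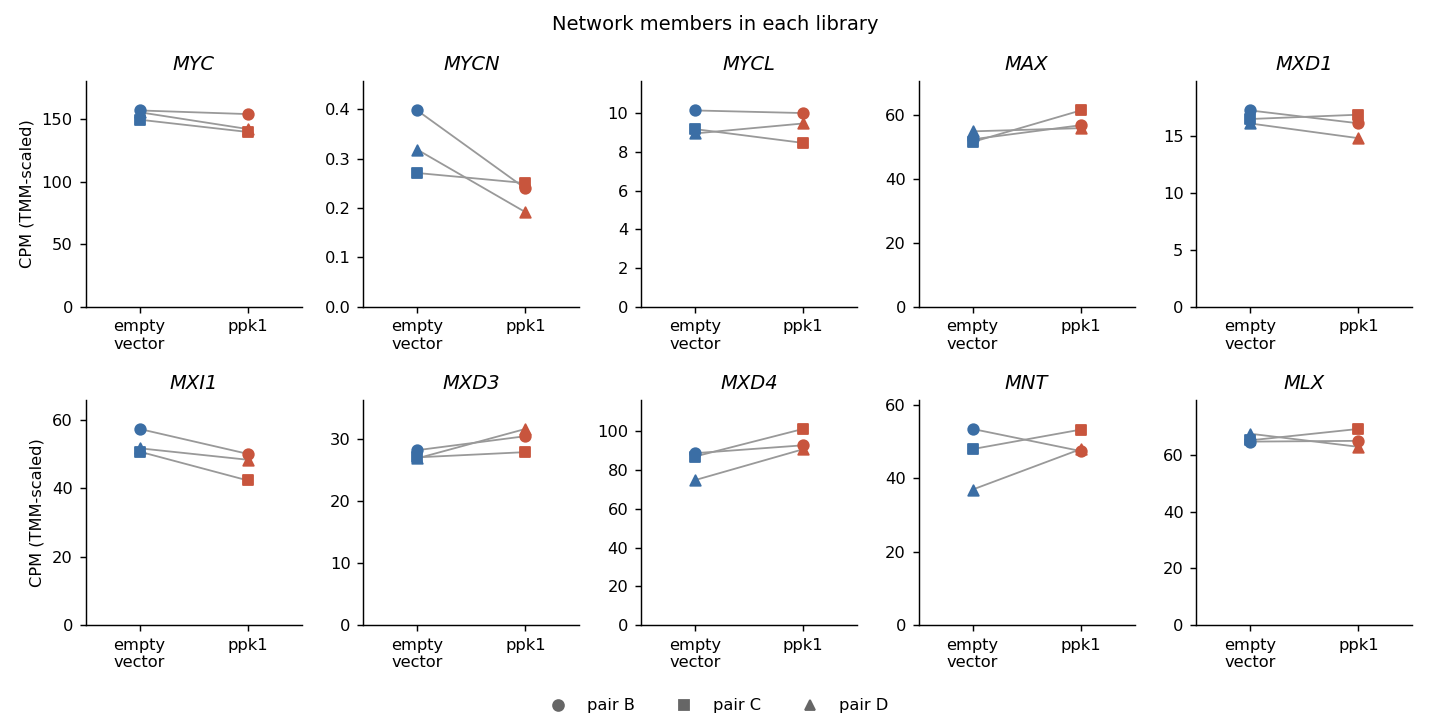
TMM-scaled CPM of the 10 members, with a panel for each gene, axes from 0, blue symbols for empty vector and red for ppk1 libraries, and grey lines joining the libraries of a pair. All 3 lines fall for MYC, MYCN and MXI1, all 3 rise for MAX, MXD3 and MXD4, and those of MNT cross.

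The balance between the classes was taken as the summed TPM of MXD1, MXI1, MXD3, MXD4 and MNT over that of MYC, MYCN and MYCL, within each library. This ratio was 0.722, 0.708 and 0.629 in the empty vector libraries B, C and D and 0.709, 0.78 and 0.757 in the ppk1 libraries. It was higher with ppk1 in pairs C and D and lower in pair B, and the groups overlapped. The means were 0.686 ± 0.0502 and 0.749 ± 0.0358 (SD, n = 3). Their difference of 0.0621 was 0.0995 without pair B, 0.0294 without pair D and 0.0925 with the longest transcript as length. The 3 genes most like MXD4 across the 6 libraries, by Pearson's r of log2 CPM among 15086 genes, were ZMIZ1, DDAH1 and NCS1 (r of 0.999, 0.997 and 0.997). With 6 libraries that share group and letter, 1190 genes had an r above 0.9. ZMIZ1 had a log2 fold change of 0.24 (edgeR adjusted p 0.0404, but 0.203 without the block, 0.533 without pair C and 0.247 without pair D, and between 0.0551 and 0.113 with DESeq2, upper-quartile scaling, no filter or the stricter filter), and the other two were not called.

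Among the partners of MLX and MAX outside the 10 members, MLXIP, which encodes MondoA, rose. It had 100.04, 101.7 and 80.7 CPM in the empty vector libraries B, C and D and 106, 132 and 111 CPM with ppk1, so that the groups did not overlap. Its log2 fold change was 0.31 (SE 0.08, edgeR adjusted p 0.00651). The call was lost without the block (adjusted p 0.141), without pair C (0.326) and without pair D (0.052). The other two genes of the wider network were not called: MLXIPL, for ChREBP, had a log2 fold change of 0.11 and MGA, which encodes a MAX partner that also holds a T-box, one of -0.04.

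Of 7 genes known as targets of MLX with MondoA or ChREBP, 6 passed the filter, and 4 of these were called, 3 lower and 1 higher, where 5.04% and 4.04% of all tested genes were. The median of the 6 was -0.22. The median differed between pairs, being -0.05 in pair B, -0.36 in C and -0.22 in D. ARRDC3, an arrestin-domain protein, had 33.2, 33.4 and 40.95 CPM in the empty vector libraries B, C and D and 21.3, 18.2 and 22.1 CPM with ppk1. All 3 ppk1 libraries were well below all 3 controls. It fell by 0.80 on the log2 scale (SE 0.08, edgeR adjusted p 2.0e-10, and 0.00152 without the block). TXNIP, the thioredoxin-binding arrestin-domain protein that is the classic glucose-induced MondoA target, had 46.8, 46 and 57.9 CPM without and 41, 32.3 and 37 CPM with ppk1. The groups did not overlap, and the fall of TXNIP was smallest in pair B. Its log2 fold change was -0.45 (SE 0.08, edgeR adjusted p 9.2e-05, and 0.0452 without the block). KLF10, a Krüppel-like repressor that growth factor signals also control, fell by 0.36 on the log2 scale (edgeR adjusted p 0.000795). FASN, the fatty acid synthase that SREBP also controls, rose from 657 ± 94.7 to 909 ± 117 CPM (n = 3, mean ± SD). On the log2 scale the difference of FASN was 0.47 (edgeR adjusted p 4.9e-05, SE 0.08). Without the block KLF10 and FASN missed the threshold (adjusted p 0.0711 and 0.0507), as did KLF10 without pair C (0.159). ARRDC4, TXNIP's closest relative among these targets, was not called (log2 fold change -0.07), nor was ACACA (0.08). PKLR did not pass the filter on low counts. The called genes therefore moved in both directions.

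Of 21 cofactors and turnover factors of MYC, 2 were called, both lower, and the median was 0.09, with 14 of the 21 (66.7%) positive. This count is close to the background, since 9.08% of all genes were called and 5.04% were called lower. Without pair B 5 were called, where 12.5% of all genes were, and without pair C 0 were (1 at an unadjusted p below 0.05), where the median was 0.04. ZBTB17 encodes MIZ1, the zinc finger protein through which MYC represses genes. It had 29.1, 28.7 and 25.1 CPM in the empty vector libraries B, C and D and 20.05, 20.6 and 21.5 CPM with ppk1, with no overlap. It fell by 0.42 on the log2 scale (SE 0.08, edgeR adjusted p 0.000374), and was not called without pair C (0.0836). FBXW7, the F-box protein that targets MYC for degradation, had 53.7, 52.2 and 51.3 CPM without and 45.1, 40.5 and 44.2 CPM with ppk1. It fell by 0.28 on the log2 scale (SE 0.08, edgeR adjusted p 0.0119, but 0.0635 without the block and 0.495 without pair C). Of the 10 corepressor genes that serve the MXD proteins, 0 were called by edgeR or by DESeq2, 1 (HDAC1, chosen for mention after its values were seen) passed at an unadjusted p below 0.05, and the median was 0.04. Among all genes 9.08% were called and 23.8% passed at an unadjusted p below 0.05. All 10 of these log2 fold changes from the joint fit had a positive sign, beside 53.1% of all genes, the smallest being 0.0015 (SUDS3). Pair D was mixed, from -0.16 (SAP18) to 0.24 (SIN3B), with a median for these genes of -0.02, while B gave 0.05 and C 0.09. The fitted median was 0.02 with upper-quartile scaling or without pair C and 0.10 with the offsets.

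Of 42 genes known to be activated by MYC, 6 were called higher and 0 lower (0 lower also at an unadjusted p below 0.05, and by DESeq2), against 4.04% higher and 5.04% lower among all tested genes. Their median log2 fold change was 0.12, beside 0.01 for all genes, and 35 of the 42 (83.3%) had a positive sign, beside 53.1% of all genes. The share was 66.7% among the 21 cofactors and 100% among the 10 corepressor genes. In pairs B, C and D the medians were 0.09, 0.22 and 0.09, and the fit without pair C gave 0.07. The largest rise was that of SRM, spermidine synthase, which had 144, 146 and 127 CPM in the empty vector libraries B, C and D and 159.7, 212 and 165 CPM with ppk1. Its log2 fold change was 0.35 (SE 0.08, edgeR adjusted p 0.00121). NME1 (a nucleoside diphosphate kinase, 0.26), APEX1 (the base excision endonuclease, 0.24), MRTO4 (a ribosome assembly factor, 0.22), CTPS1 (CTP synthase, 0.22) and PHB (prohibitin, 0.22) are given with their log2 fold changes, and edgeR put their adjusted p between 0.0172 and 0.0494. NME1 shares 18.6% of its exonic bases with the readthrough gene NME1-NME2 and is uncertain. AC091180.3 covers 25.1% of PHB's exonic bases on the opposite strand. Classic targets such as NCL (0.15), ODC1 (0.11), CAD (0.20), LDHA (-0.04) and TERT (-0.05) were not called; they were picked for mention as textbook targets after their values were seen. The 6 calls were small, and their number moved with most choices. In the fit lacking the block 0 genes passed (13 upward at an unadjusted p below 0.05, where 18.6% of all genes did either way). Without pair C 0 passed (1 upward at an unadjusted p below 0.05, where 10.3% did either way). RLE scaling called 3 higher, upper-quartile scaling 2, DESeq2 4 and the offsets 17. Among all genes these fits called 8.73%, 6.92%, 4.36% and 16.5% in either direction. The genes they called higher numbered 693, 422, 323 and 1960. Without pair D 8 were called higher, where 671 of the 19897 genes tested were called higher and 9.06% were called in either direction. In that fit 2 passed lower at an unadjusted p below 0.05. MRTO4 and PHB were both lost with RLE, upper-quartile scaling, the stricter filter and DESeq2, and MRTO4 also without a filter. CTPS1 was lost with RLE and upper-quartile scaling, and APEX1 with upper-quartile scaling. Without pair B, NME1, CTPS1, MRTO4 and PHB lost the call (edgeR adjusted p 0.0507 to 0.0999).

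Of 10 genes known to be repressed by MYC, 3 were called lower and 2 higher, where 5.04% and 4.04% of all tested genes were. The median was -0.21, and -0.13 without pair C. By pair it was -0.10 (B), -0.20 (C) and -0.02 (D). GADD45A, a growth arrest gene that p53 and stress signals induce, had 81.6, 64.8 and 61.5 CPM in the empty vector libraries B, C and D and 56.9, 49.3 and 57.6 CPM with ppk1. It fell by 0.34 on the log2 scale (SE 0.08, edgeR adjusted p 0.00298). CDKN2B, which encodes the CDK inhibitor p15, was at 11.3 ± 0.149 CPM without and 9.23 ± 0.0429 CPM with ppk1 (n = 3, mean ± SD). It fell by 0.29 on the log2 scale (edgeR adjusted p 0.0424, SE 0.10). CEBPA, a differentiation factor, rose by a log2 fold change of 0.28 (edgeR adjusted p 0.0242), but AC008738.3 and AC008738.5 cover 43.4% of its exonic bases on the opposite strand. PDGFRB, a growth factor receptor, fell by 1.07 on the log2 scale (edgeR adjusted p 0.0268) at 19 to 26 counts in control and 10 to 16 counts in ppk1 libraries. THBS1, an angiogenesis inhibitor, was called higher (edgeR adjusted p 0.0402) on 1 to 6 against 10 to 18 counts, too few for a reliable size. The genes not called were CDKN1A, which encodes p21 (log2 fold change 0.09), NDRG2 (0.10), CDKN1C (-0.20), CDKN1B (-0.22) and NDRG1 (-0.23). Their edgeR adjusted p ran from 0.0566 (CDKN1B) to 0.496 (CDKN1A). In the fit lacking the block 0 of the 10 were called (6 at an unadjusted p below 0.05, where 18.6% of all genes were). Without pair B 2 of the 9 still tested were called, where 12.5% of all genes were. Without pair C 0 of the 10 were called (4 at an unadjusted p below 0.05, where 10.3% of all genes were). DESeq2 called 1, and 4.36% of all genes.

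**Figure D4:**
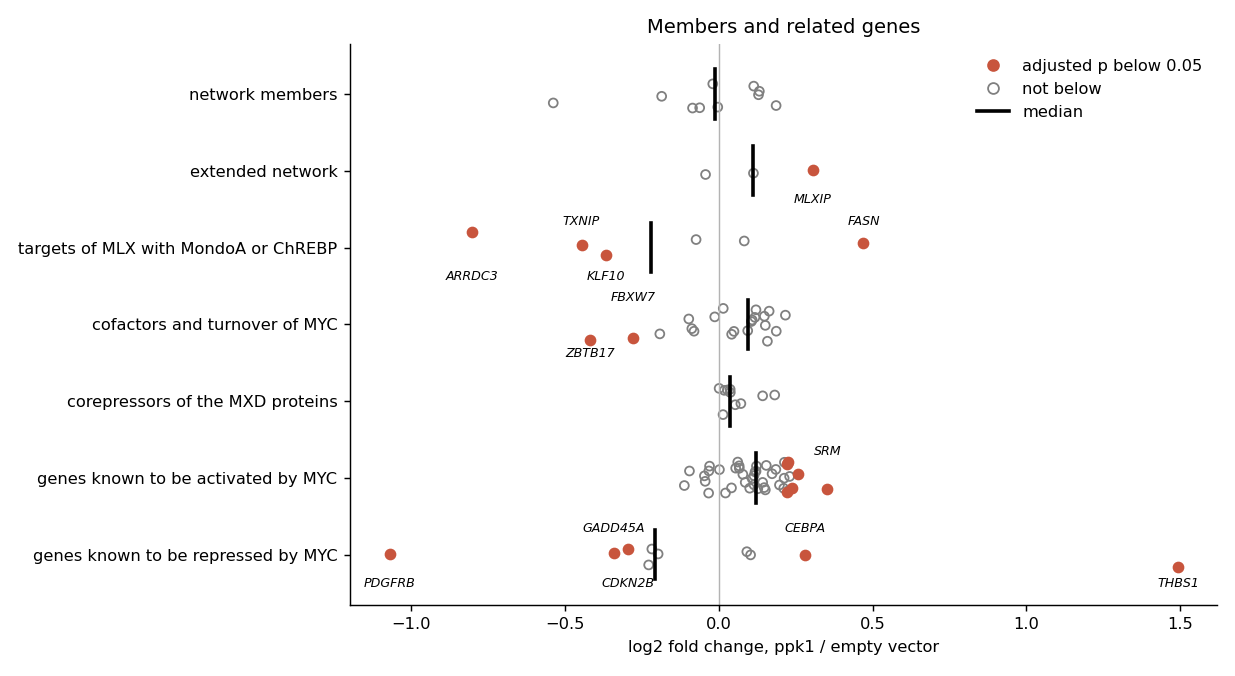
Log2 fold change, ppk1 over empty vector, of the 10 members and of 6 lists of related genes, with filled red circles for an adjusted p below 0.05, open grey circles for the rest and black bars for medians. No member is filled, while 4 of the 6 MLX targets tested and 6 of the 42 MYC-activated genes are, of which SRM is labelled.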

How the data were processed

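The authors deposited a table of raw read counts per Ensembl gene, whole numbers with a different total in each library. Per the labels' protocols, RNA was poly(A)-selected and libraries were directional. Per the submitters' processing notes, which give no roles, the tools were bcl2fastq 2.20, Trimmomatic, STAR, HTSeq, edgeR, DESeq, Cufflinks and Cuffdiff; the genome build, annotation and strand setting are not given in the sources used here. All 6 columns matched a sample title.

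Genes were filtered with filterByExpr (minimum count 10), scaled by TMM and tested with edgeR 4.0.16 in R 4.3.3 (glmQLFit, glmQLFTest), with Benjamini-Hochberg adjustment over all 19574 genes, a threshold of 0.05 and the replicate letter as a block. The pairing comes from the series' design text, which states matched biological replicates. Deviations from the group's mean correlated at 0.109 (B), 0.135 (C) and 0.0476 (D) for same-letter libraries, against -0.12 to -0.00506 between letters. These deviations cancel out within a group, so positive same-letter values force negative values between letters. The contrast is no separate support for the pairing. SE is the absolute log2 fold change over the square root of F, intervals are 95% with the t distribution, and pair differences are of log2 CPM with a prior count of 2. Exon lengths and overlaps came from GENCODE release 29, which held 98.96% of the identifiers. The fit was run on simulated counts with a dispersion common to all genes and no pair effect. The genes given a change there averaged at least 50 counts, so the simulation does not cover genes with few counts. Alternatives were no block, RLE and upper-quartile scaling, no filter, a mean of at least 50 counts, DESeq2 1.42.0, the newer quasi-likelihood setting, offsets for GC content and transcript length (splines with 5 degrees of freedom), and each pair left out; the longest-transcript length was chosen after seeing the data.

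The members and lists were chosen with earlier results of these data known. Named genes were all members, up to 6 called genes per list by adjusted p, and the 3 genes most correlated with the member of smallest p among those averaging 50 counts or more. CIP2A was matched by identifier to its older symbol.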

Additional observations from a re-analysis of the deposited data

How the results depend on the processing

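Without the replicate block 470 genes were called (89 higher, 381 lower) in place of 1777 (791 higher, 986 lower), DESeq2 called 754 (323 and 431), and offsets for GC content and length called 3219 (1960 higher). The share of higher genes among calls was 44.5%, 60.9% with these offsets and 31.1% with upper-quartile scaling (422 higher). With a pair left out, the calls lay between 406 (C left out) and 2435 (B left out), higher from 82 to 1263 and lower from 324 to 1172.

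Members called stayed at 0 under the block-free fit, both other scalings, both filters, DESeq2, the newer setting and the offsets, and were 0 to 2 with a pair left out. MLX (0.0019) and MXD1 (0.0012) changed sign with the offsets. With a pair left out, log2 fold changes ran from -0.0470 to 0.0247 for MLX, -0.0340 to 0.261 for MNT, -0.0854 to 0.0291 for MYCL, 0.120 to 0.248 for MXD4 and -0.249 to -0.146 for MXI1. MYCN had no value at a mean of 50 counts, which it does not reach, and no adjusted p with DESeq2.

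Without the block, the lists had 1 (MYC cofactors), 0 (extended network), 0 (MYC-activated), 0 (MYC-repressed) and 2 (MLX targets) calls in place of 2, 1, 6, 5 and 4. The MYC-activated list had 3 with RLE, 2 with upper-quartile scaling and 17 with the offsets, which also gave 8 MYC cofactors and 1 corepressor gene. The MYC-repressed list had 3 without a filter and 1 with DESeq2. Among all genes 2.4% were called without the block, 8.73% with RLE and 6.92% with upper-quartile scaling. The offsets called 16.5%, the fit without a filter 4.57% and DESeq2 4.36%. With a pair left out the ranges were 0 to 5, 0 to 1, 0 to 8, 0 to 4 and 3 to 4. Of 193 values of the named list genes, 57 lost the call and 0 changed sign. The cause was not tested.

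With the longest transcript as length, TPM were 185 (MYC), 0.361 (MYCN), 8.26 (MYCL), 47.7 (MAX), 8.48 (MXD1), 34.1 (MXD3), 56.4 (MXD4), 26.4 (MNT) and 72.5 (MLX). Depth limits MYCN, PDGFRB and THBS1.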
